A study of Mus musculus with 7 samples.

Results

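Chemokines are small secreted proteins that guide leukocytes, and chemokine receptors are the G protein-coupled receptors through which cells follow them. The 58 chemokine and chemokine receptor genes described here comprise 38 ligands and 20 receptors, out of 55401 genes in the count table. They were chosen by gene symbol alone. Protein-coding genes named Ccl, Cxcl, Ccr or Cxcr with a number were taken, together with Cx3cl1, Cx3cr1, Xcl1, Pf4, Ppbp, Ackr2, Ackr3 and Ackr4, while 1 CC ligand gene was left out by the rule. Cxcl11 was not a member because its symbol was annotated as a polymorphic pseudogene.

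RNA-seq was performed on right lung lobes from 7 male C57BL/6 mice that were 6 to 8 weeks old, with 1 library per mouse and all lungs taken on day 21. All of the mice had been given bleomycin through the trachea, which damages the lung and is used to model fibrosis. The BLM group held 4 mice. The BLM+HBO group held 3 mice that in addition breathed oxygen in a pressure chamber (hyperbaric oxygen, HBO) at 2.5 ATA for 90 min a day on 14 days, starting on day 7. Whether the BLM mice also sat in the chamber is unsettled, since the sample records say so (without pressurised oxygen) whereas the supplementary methods call them untreated. Mice that lost too little weight after bleomycin were excluded by the study, and lungs without bleomycin were not analysed here.

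Chemokines fall into CC, CXC, CX3C and XC families, named for the spacing of their first cysteines. In the lung, CC ligands such as Ccl2 are known for drawing monocytes out of the blood through the receptor Ccr2, CXC ligands such as Cxcl1 for drawing neutrophils through Cxcr2, and ligands such as Cxcl12 and Cxcl13 for holding and placing cells in tissue. Atypical receptors (Ackr2, Ackr3 and Ackr4) bind chemokines and take them up without the usual signal.

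The counts summed to between 18436336 and 19002242 reads in the BLM mice and between 18157161 and 26365969 reads in the BLM+HBO mice. The members held 0.329% to 0.359% of the reads in BLM and 0.337% to 0.354% in BLM+HBO, so that their total was similar in both groups. BLM+HBO 2 stood nearest to the BLM mice on the first principal component of all genes (-0.996, against -47.6 to -6.08 in BLM and 54.8 and 37.8 in the other BLM+HBO mice). Heart muscle genes were high in BLM+HBO 1 and BLM+HBO 2. The 10 genes listed summed to 730, 575 and 171 CPM (the read count scaled to the normalised library size) in the BLM+HBO mice, against 71.8 to 194 CPM in BLM, and 9 of them were called higher by the limits given below. Values are therefore given mouse by mouse, and each main count is also given without BLM+HBO 2. That mouse was chosen for its place in these same data, so values without it are descriptions and no independent support.

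Of the 58 members, 52 passed the filter on low counts and were tested with edgeR among 17465 genes. A gene was called where the unadjusted P was below 0.05 and the fold change above 1.5, the limits of the study. Of the 52 members, 10 (19.2%) were called lower in BLM+HBO, against 2.89% of all genes tested, and 5 (9.62%) were called higher, against 3.40%. When BLM 1 was dropped, 3 of 52 members were called higher, beside 403 of all 17249 genes tested. Dropping BLM 3 also left 3 of 52, beside 785 of 17227. Dropping BLM+HBO 1 left 2 of 52 higher members, beside 345 of 17831. Once BLM+HBO 2 was dropped, 9 of 53 members were called higher (against 5.29% of all genes) and 15 lower (against 5.41%). The median log2 fold change of the tested members was -0.15, beside 0.0071 over all genes tested. The lower members included 8 ligands (Ccl24, Ccl7, Ccl2, Cxcl5, Cxcl1, Ccl8, Cxcl13 and Cxcl14) and the receptor Ccr1. The higher members were the ligands Ppbp and Ccl5 and the receptors Cxcr3, Cxcr5 and Ackr4.

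After Benjamini-Hochberg adjustment over all genes, edgeR called 0 of the members (0% of all genes), with a lowest adjusted P of 0.423. Of the 52 members, 16 (30.8%) had an unadjusted edgeR P below 0.05, beside 1861 of all 17465 genes tested. The 15 called members had an edgeR adjusted P between 0.423 and 0.461. DESeq2, the tool named in the methods, called 3 members after adjustment (5.77%, against 0.704% of all genes tested). These were Ccl7 (DESeq2 adjusted P = 0.00166), Cxcl5 (0.0162) and Ccl8 (0.0169), all lower in BLM+HBO. Over the settings tried, the adjusted P ranged from 0.000195 to 0.802 for Ccl7, from 0.00429 to 0.802 for Cxcl5 and from 0.0035 to 0.802 for Ccl8. The groups did not overlap for 7 lower members (13.5%, against 4.72% of all genes) and for 1 higher member (1.92%, against 4.05%). The lower members without overlap included Ccl7, Ccl8, Cxcl5, Ccl2, Ccr1 and Cxcl14, and the higher one was Ppbp.

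**Figure D1:**
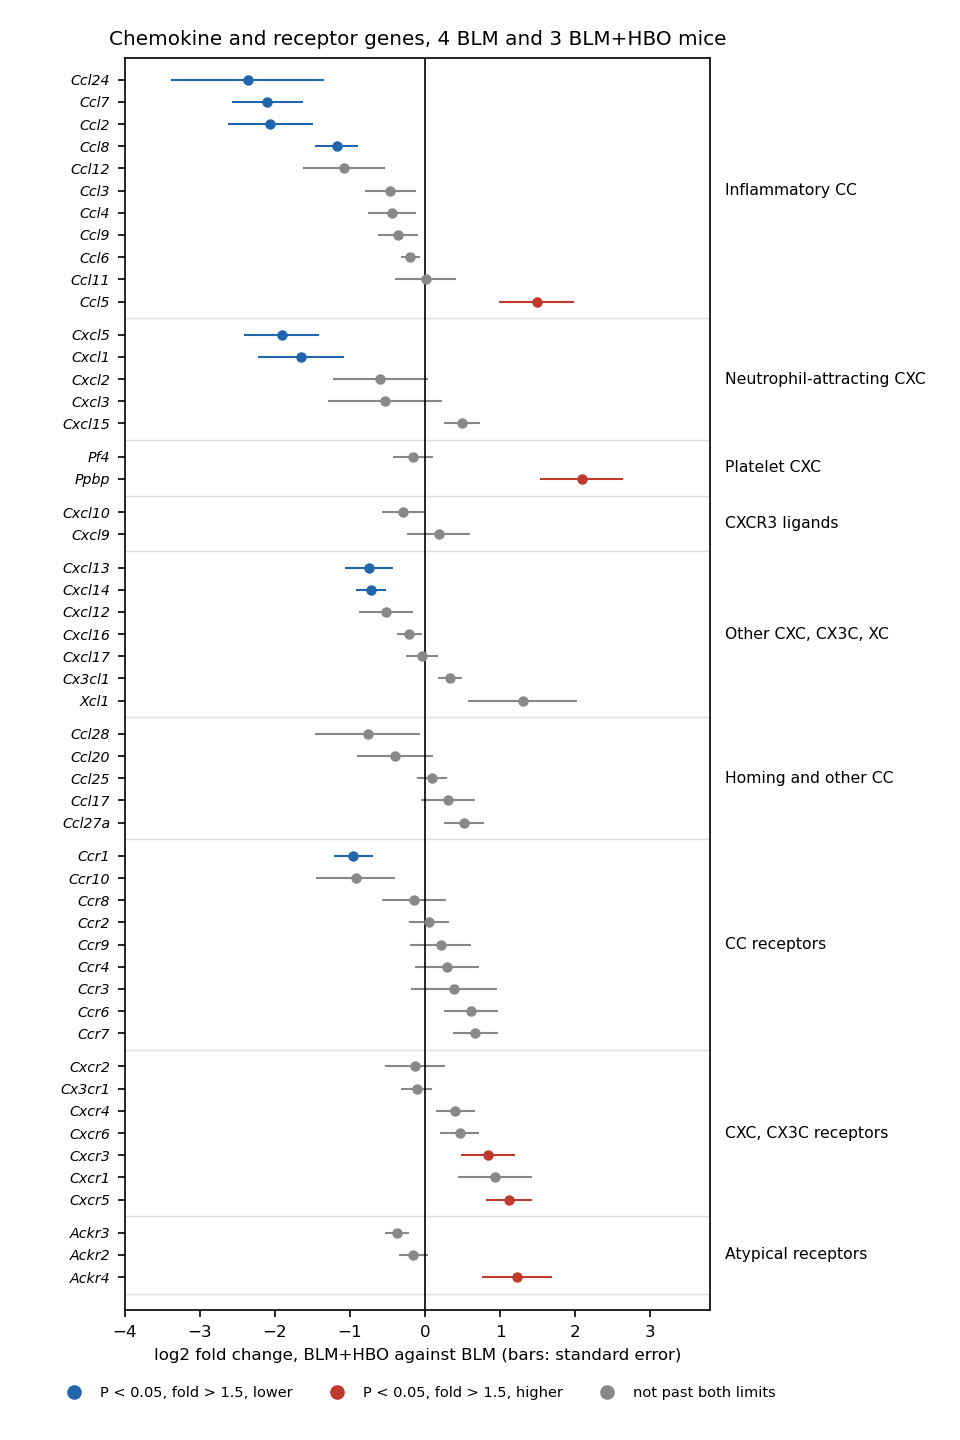
Each point is the log2 fold change of 1 of 51 tested members in BLM+HBO against BLM (horizontal axis, edgeR) with its standard error as the bar, grouped by role along the vertical axis. Blue points are members called lower, red points the 5 called higher, and grey points did not pass both limits. Of the blue points, 8 are ligands.

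Among the CC ligands that act on Ccr2, Ccl2 and Ccl7 were called lower in BLM+HBO, and Ccl12 was not called. Ccl2 (monocyte chemoattractant protein 1, ENSMUSG00000035385.5, GRCm38 chr11:82035571-82037453, plus strand) had 60.8, 45.9, 34.2 and 37.2 CPM in the BLM mice and 3.41, 23.2 and 5.51 CPM in the BLM+HBO mice. The groups were apart, and BLM+HBO 2 lay between the BLM mice and the other BLM+HBO mice. Its log2 fold change was -2.06 (standard error 0.56, 95% interval -3.32 to -0.80). Means were 44.5 ± 11.9 CPM (SD, n = 4) and 10.7 ± 10.9 CPM (SD, n = 3), which is 4.17-fold lower.

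Ccl7 (monocyte chemoattractant protein 3, ENSMUSG00000035373.2, GRCm38 chr11:82045712-82047525, plus strand) starts 8259 bases past the end of Ccl2 and binds Ccr2 as well. It had 32.5, 31.6, 22.8 and 26.5 CPM in BLM and 3.25, 13.5 and 3.15 CPM in BLM+HBO. The groups were again apart, and BLM+HBO 2 was again the highest of its group. On the log2 scale the difference was -2.10 (standard error 0.48, 95% interval -3.17 to -1.03). Ccl12, the third Ccr2 ligand of the mouse, had 16.3, 11.7, 17.6 and 7.58 CPM in BLM and 4.15, 12.7 and 1.99 CPM in BLM+HBO. Its groups overlapped through BLM+HBO 2, and the log2 fold change of -1.08 was not called (standard error 0.55, 95% interval -2.31 to 0.14). By DESeq2 over all mice it was also -1.08 and passed both limits (DESeq2 unadjusted P = 0.0325, adjusted P = 0.372). Without BLM+HBO 2 the edgeR value was -2.13 (edgeR adjusted P = 0.0466, the lowest of its settings, which reached 0.813).

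Ccr2, the receptor of these ligands on classical monocytes (ENSMUSG00000049103.14, GRCm38 chr9:124101950-124113557, plus strand), had 113, 103, 71.7 and 108 CPM in BLM and 156, 85.3 and 66.5 CPM in BLM+HBO. BLM+HBO 1 was the highest and BLM+HBO 3 the lowest of all 7 mice. This gave a log2 fold change of 0.05 with a 95% interval from -0.56 to 0.66, and its sign turned when BLM 3 (-0.08) or BLM+HBO 1 (-0.38) was left out. Ccl2, Ccl7 and Ccl12 together summed to 110, 89.2, 74.6 and 71.3 CPM in BLM and to 10.8, 49.4 and 10.6 CPM in BLM+HBO. Divided by the CPM of Ccr2 in the same mouse, this sum gave 0.969, 0.867, 1.04 and 0.659 in BLM and 0.0693, 0.579 and 0.16 in BLM+HBO. The ratios did not overlap between groups. The ratio was chosen after the values were seen and was not tested.

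Ccl8 (monocyte chemoattractant protein 2, ENSMUSG00000009185.2, GRCm38 chr11:82115185-82116799, plus strand), which in the mouse acts on Ccr8, had 28.5, 31.4, 30.1 and 19.1 CPM in BLM. In BLM+HBO it had 7.19, 17.3 and 11.6 CPM, all below the BLM mice. BLM+HBO differed from BLM by a log2 fold change of -1.18 (standard error 0.28, 95% interval -1.82 to -0.54), and it was called with each mouse left out in turn. Ccr8 itself was low, with 0.564 to 1.71 CPM in BLM and 0.937 to 1.15 CPM in BLM+HBO. Ccl1, the other Ccr8 ligand, had 4 to 18 reads per mouse and was not tested.

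Ccr1, a receptor for inflammatory CC ligands on monocytes and macrophages, was called lower. It (ENSMUSG00000025804.5, GRCm38 chr9:123962124-123968692, minus strand) had 75.5, 57.3, 60.8 and 51.0 CPM in BLM and 30.9, 45.1 and 18.8 CPM in BLM+HBO. The groups did not overlap, and BLM+HBO 2 was again the mouse nearest to BLM. For Ccr1 the log2 fold change was -0.95 (standard error 0.26, 95% interval -1.54 to -0.37), and it was called with each mouse left out in turn.

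Most of the markers of monocytes and interstitial macrophages, though not all, moved with these members. Of 10 markers, 6 were called lower and 0 higher (among them Adgre1, C1qa, C1qb, C1qc and Fcgr1), with a median log2 fold change of -0.73. Log2 fold changes were negative for 8 markers and positive for 2, Ly6c2 (0.47) and Lyz2 (0.28), neither of them called. The summed level of the 10 markers was 6316 to 7315 CPM in BLM and 6457 to 8640 CPM in BLM+HBO, mostly from Lyz2, and no marker was at 0. Their part in the lower Ccl2, Ccl7, Ccl8 and Ccr1 was not tested. In bulk lung RNA, fewer cells of a type and less RNA per cell cannot be told apart.

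**Figure D2:**
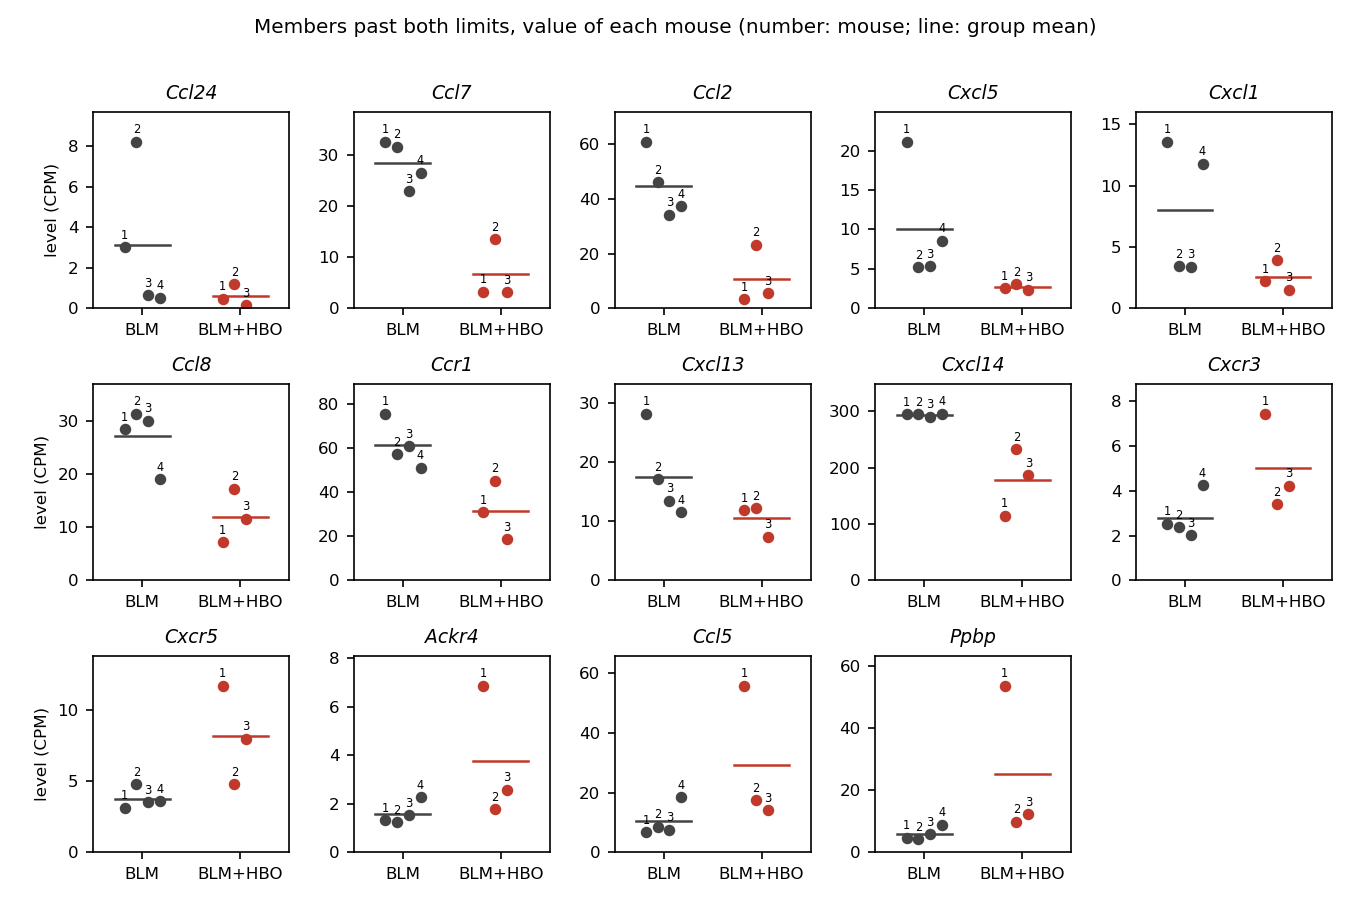
Each panel is 1 member called lower (first panels, Ccl24 to Cxcl14) or higher (last 5 panels), with the level of each mouse in CPM on a linear axis from 0, the mouse number above its point and the group mean as a line. BLM+HBO 2 is the BLM+HBO mouse nearest to BLM in each lower member shown, and BLM+HBO 1 is the highest mouse in all 5 higher members.

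The remaining inflammatory CC ligands did not move as one. Ccl24 (eotaxin-2, an eosinophil attractant through Ccr3, ENSMUSG00000004814.10, GRCm38 chr5:135569937-135573049, minus strand) had 3.03, 8.23, 0.659 and 0.527 CPM in BLM and 0.479, 1.2 and 0.15 CPM in BLM+HBO. The BLM mice themselves spread widely and the groups overlapped. Its log2 fold change was -2.37 (standard error 1.02, 95% interval -4.64 to -0.09). It passed the filter in 3 BLM mice and in 1 BLM+HBO mouse, and it was not called when BLM 2 (-1.22), BLM 1 (-2.38), BLM+HBO 1 (-2.24) or BLM+HBO 3 (-1.87) was left out. Ccl11 (eotaxin-1) had a log2 fold change of 0.01 and Ccr3 one of 0.38, neither called. Ccl26 had 0 reads in every mouse, which allows up to 0.112 to 0.169 CPM depending on the mouse (3 reads, counting error only).

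Ccl5 (RANTES, made by T and NK cells, ENSMUSG00000035042.2, GRCm38 chr11:83525778-83530518, minus strand) was the only CC ligand called higher. It had 6.77, 8.57, 7.63 and 18.4 CPM in BLM and 55.8, 17.4 and 14.1 CPM in BLM+HBO. BLM+HBO 1 was far above the others, and BLM 4 lay above the other 2 BLM+HBO mice. In edgeR the log2 fold change was 1.49 (standard error 0.50, 95% interval 0.37 to 2.60). Without BLM+HBO 1 it was 0.61 and not called.

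Ccl5 sits in a second group of CC genes on chromosome 11 with Ccl9, Ccl6, Ccl3 and Ccl4. None of the other 4 was called, and their log2 fold changes were -0.36, -0.20, -0.46 and -0.44 in that order. Ccl6 and Ccl9, ligands of Ccr1 in the mouse, were among the most abundant members, at 212 and 34.2 CPM per kb of exon over all mice. Ccl9 had 108 to 131 CPM in BLM and 70.1, 141 and 57.9 CPM in BLM+HBO, so that BLM+HBO 2 was the highest of all mice. Without BLM+HBO 2 its log2 fold change was -0.85 and it was called (edgeR adjusted P = 0.0324).

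The neighbouring genes on chromosome 5 that encode neutrophil-attracting and platelet CXC ligands were called in different directions. In chromosomal order they are Cxcl5, Ppbp, Pf4, Cxcl3, Cxcl15, Cxcl1 and Cxcl2, all on the plus strand. Of the 7, Cxcl5 and Cxcl1 were called lower and Ppbp higher. The 100 bases before the RefSeq start site are shown for the 6 neighbours with an entry, which differ in direction, together with Ccl8 of the chromosome 11 group (GRCm38.p6). Capitals mark matches on either strand to GGGNNTTTCC, a short form of the motif bound by NF-kB, a transcription factor known for inducing several of these ligands.
Cxcl1 (called lower, chr5:90891145-90891244, plus strand): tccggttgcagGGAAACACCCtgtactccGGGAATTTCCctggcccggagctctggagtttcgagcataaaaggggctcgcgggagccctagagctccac
Cxcl2 (not called, chr5:90903799-90903898, plus strand): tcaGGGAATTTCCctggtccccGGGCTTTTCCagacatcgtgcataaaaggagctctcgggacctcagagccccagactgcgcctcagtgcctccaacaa
Cxcl3 (not called, chr5:90786001-90786100, plus strand): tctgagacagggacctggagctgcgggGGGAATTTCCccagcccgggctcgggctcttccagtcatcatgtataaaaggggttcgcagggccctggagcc
Cxcl15 (not called, chr5:90794434-90794533, plus strand): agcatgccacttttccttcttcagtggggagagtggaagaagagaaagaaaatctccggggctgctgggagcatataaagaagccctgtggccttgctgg
Ppbp (called higher, chr5:90768418-90768517, plus strand): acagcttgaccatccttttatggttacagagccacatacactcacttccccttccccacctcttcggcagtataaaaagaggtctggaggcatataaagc
Pf4 (not called, chr5:90772335-90772434, plus strand): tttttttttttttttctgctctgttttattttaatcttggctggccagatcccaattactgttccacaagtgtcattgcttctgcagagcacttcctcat
Ccl8 (called lower, chr11:82115085-82115184, plus strand): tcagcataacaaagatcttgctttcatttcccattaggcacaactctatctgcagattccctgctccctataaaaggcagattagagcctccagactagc

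The match GGGAATTTCC started 71 bases before the start of Cxcl1, 97 bases before Cxcl2 and 73 bases before Cxcl3. Cxcl1 held another match at 89 bases and Cxcl2 another at 78 bases. In windows from 250 bases before to 50 bases after the start, 535 of 32851 RefSeq promoters held this motif (1.63%). Of the 51 promoters of the 44 members with an entry, 6 held it, those of Cxcl1, Cxcl2, Cxcl3, Ccl20, Ccl9 and Ccr3. Of these 6 members 1 was called, Cxcl1, beside 1098 of all 17465 genes tested, and 6 are too few to compare. The interferon motif GAAANNGAAA was in 1131 promoters (3.44%) and in 3 of the 51 member promoters, those of Ccl19, Cxcl10 and Cxcl14. No member held both motifs, which were chosen with the values of these data known. A match is a run of letters and not a measured site. The promoters of Ccl2, Ccl5, Ccl7, Ccl24, Cxcl5 and Cxcr5 were not analysed here.

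Cxcl5 (a neutrophil attractant made by epithelium, ENSMUSG00000029371.7, GRCm38 chr5:90759360-90761624, plus strand) had 21.1, 5.19, 5.33 and 8.58 CPM in BLM and 2.56, 3.11 and 2.36 CPM in BLM+HBO. The BLM+HBO mice were close together and all below BLM, while BLM 1 was well above the other BLM mice. Its log2 fold change was -1.91 (standard error 0.50, 95% interval -3.03 to -0.79), and -1.25 without BLM 1, where it was still called. Cxcl1 (KC, ENSMUSG00000029380.11, GRCm38 chr5:90891241-90893115, plus strand) had 13.6, 3.44, 3.4 and 11.8 CPM in BLM and 2.24, 3.92 and 1.54 CPM in BLM+HBO. Its BLM mice fell into a high and a low pair, and BLM+HBO 2 lay above the low pair. On the log2 scale the difference was -1.66 (standard error 0.57, 95% interval -2.94 to -0.37), and the call was lost without BLM+HBO 3 (-1.39).

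Cxcl2 (MIP-2, ENSMUSG00000058427.10, GRCm38 chr5:90903871-90905938, plus strand) had 3.96, 3.61, 1.10 and 4.05 CPM in BLM and 1.06, 4.45 and 0.825 CPM in BLM+HBO. BLM+HBO 2 was the highest of all mice and BLM 3 was as low as the other BLM+HBO mice. The log2 fold change of -0.59 was not called, and it was -1.76 and called without BLM+HBO 2. Cxcl3 followed Cxcl2, with 0.659 to 3.69 CPM in BLM, 0.532, 2.73 and 0.45 CPM in BLM+HBO and a log2 fold change of -0.53 that was not called. Without BLM+HBO 2 it was -1.86 and called. Cxcl15 (lungkine, made by lung epithelium, ENSMUSG00000029375.6, GRCm38 chr5:90794534-90803067, plus strand) had 725, 1281, 1005 and 1132 CPM in BLM and 1614, 1001 and 1754 CPM in BLM+HBO. BLM+HBO 1 and BLM+HBO 3 were above every BLM mouse and BLM+HBO 2 was within them. Its log2 fold change of 0.49 (95% interval -0.04 to 1.02) was not called, whereas it was called without BLM 2 (0.61) or BLM+HBO 2 (0.70).

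Cxcl15 was the most abundant member per length, at 572 CPM per kb over all mice, and Ccl6 was next at 212 CPM per kb. It held 21.7%, 34.4%, 30.1% and 31.9% of the members' reads in BLM and 47.2%, 28.8% and 52.6% in BLM+HBO. The alveolar type 2 markers, also epithelial, summed to 9124 to 16648 CPM in BLM and to 24449, 11525 and 28189 CPM in BLM+HBO, with 1 of 8 called higher and none at 0. Their part in the level of Cxcl15 was not tested. The next levels per length were 134 CPM per kb for Cxcl14, 84.9 for Cxcl17, 57.3 for Cxcl12, 46.7 for Cxcl16, 42.9 for Ackr3, 40.6 for Ccl8, 34.2 for Ccl9 and 34.2 for Pf4.

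Cxcr2, the receptor of the neutrophil-attracting ligands, had 13.1, 12.6, 8.95 and 10.4 CPM in BLM and 19.2, 6.56 and 5.17 CPM in BLM+HBO. BLM+HBO 1 was the highest and the other 2 BLM+HBO mice were the lowest. This gave a log2 fold change of -0.14 (95% interval -1.04 to 0.77). It was -0.94 and called without BLM+HBO 1, and positive without BLM+HBO 2 (0.10) or BLM+HBO 3 (0.18). Cxcr1 was low, at 0.330 to 0.895 CPM in BLM and 0.526 to 1.72 CPM in BLM+HBO. Cxcr1 was not called (log2 fold change 0.93, 95% interval -0.17 to 2.03), but it was at 1.28 and called without BLM+HBO 2. Neutrophil markers summed to 298 to 390 CPM in BLM and to 617, 198 and 192 CPM in BLM+HBO, so that the sum was, as for Cxcr2, highest in BLM+HBO 1. Single markers ordered the other 2 BLM+HBO mice differently, as S100a8 had 19.3 and 27.1 CPM in BLM+HBO 2 and BLM+HBO 3, and Ltf had 98.7 and 64.5 CPM. Of 10 markers 9 were tested, 2 of these were called lower (Il1r2 and Ltf), and 0 were called higher. The log2 fold change was positive for 5 of the 9 and negative for 4, with a median of 0.04. Each of the 10 markers had a read in some mouse, and their part in the level of Cxcr2 was not tested.

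**Figure D3:**
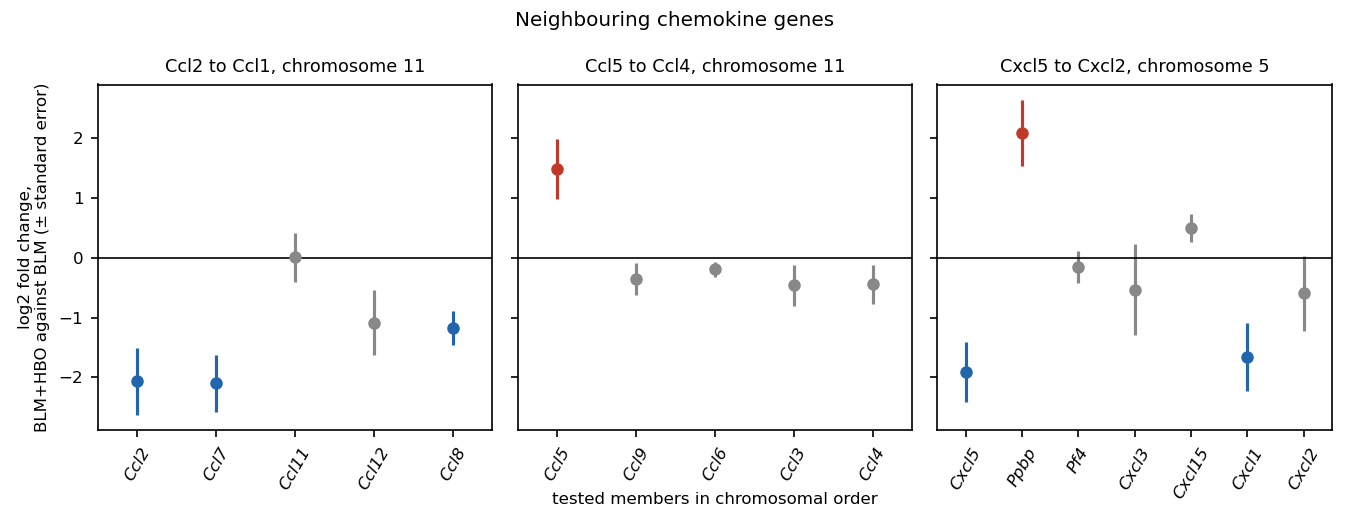
Log2 fold change in BLM+HBO against BLM (vertical axis, point with standard error, edgeR) for tested members in chromosomal order in 3 gene groups, with blue for called lower, red for called higher and grey for not called. On chromosome 5 Ppbp at 2.08 lies next to Cxcl5 at -1.91, and on chromosome 11 Ccl5 at 1.49 is the one point well above 0.

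Ppbp (pro-platelet basic protein, stored in platelets and the source of the Cxcr2 ligand NAP-2, ENSMUSG00000029372.7, GRCm38 chr5:90768518-90770063, plus strand) was the member with the largest positive log2 fold change. It had 4.79, 4.17, 5.93 and 8.90 CPM in BLM and 53.8, 9.96 and 12.3 CPM in BLM+HBO. All 3 BLM+HBO mice were above every BLM mouse, and BLM+HBO 1 was far above all others. BLM+HBO differed from BLM by a log2 fold change of 2.08 (standard error 0.55, 95% interval 0.85 to 3.31), and without BLM+HBO 1 it was 0.90 and still called. Ppbp begins 6894 bases past the end of Cxcl5.

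Pf4 (platelet factor 4, also stored in platelets, ENSMUSG00000029373.7) begins 2372 bases past the end of Ppbp. It had 35.7, 20.9, 24.7 and 21.6 CPM in BLM and 28.6, 26.6 and 14.2 CPM in BLM+HBO. The groups overlapped, and the log2 fold change was -0.16 (95% interval -0.75 to 0.44). The CPM of Ppbp divided by that of Pf4 was 0.134, 0.2, 0.24 and 0.411 in BLM and 1.88, 0.374 and 0.865 in BLM+HBO, a ratio chosen after the values were seen and not tested. Platelet markers were higher in part. Of 10 markers 9 were tested, 4 were called higher (among them Gp1ba, Treml1 and Clec1b) and 0 lower, with a median log2 fold change of 0.78. The tested markers summed to 32.5 to 47.5 CPM in BLM and to 111, 40.4 and 48.7 CPM in BLM+HBO. Gp1bb had no read in any mouse. Their part in the higher Ppbp was not tested.

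Among the CXC ligands of epithelium and stroma, Cxcl14 was called lower and Cxcl12 was not. Cxcl14 (ENSMUSG00000021508.11, GRCm38 chr13:56288643-56296551, minus strand) had 295, 295, 291 and 296 CPM in BLM and 115, 233 and 186 CPM in BLM+HBO. The 4 BLM mice were nearly equal and all BLM+HBO mice were below them. In edgeR the log2 fold change was -0.72 (standard error 0.20, 95% interval -1.18 to -0.27). Without BLM+HBO 1 it was -0.49, with a fold change under the limit of 1.5.

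Cxcl12 (stromal cell-derived factor 1, ENSMUSG00000061353.11, GRCm38 chr6:117168535-117181367, plus strand) had 647, 558, 426 and 523 CPM in BLM and 201, 660 and 264 CPM in BLM+HBO. BLM+HBO 2 was the highest of all mice and the other BLM+HBO mice were the lowest. The log2 fold change of -0.52 was not called (95% interval -1.32 to 0.28), and without BLM+HBO 2 it was -1.21 and called (edgeR adjusted P = 0.0308). Its receptor Cxcr4 had 55.8, 42.6, 32.9 and 49.1 CPM in BLM and 87.2, 40.1 and 51.9 CPM in BLM+HBO, with a log2 fold change of 0.40 that was not called. For Cxcr4 it was 0.0285 without BLM+HBO 1, the highest mouse, and 0.62 and called without BLM+HBO 2. The Cxcl12 scavenger Ackr3 had 142, 176, 163 and 153 CPM in BLM and 124, 151 and 93.6 CPM in BLM+HBO. The log2 fold change of Ackr3 was -0.37 (95% interval -0.73 to -0.01), with a fold change under 1.5. Fibroblast markers were divided. Of 10, 5 were called lower (Col1a1, Col1a2, Col3a1, Dcn and Lum) and 2 higher (Tcf21 and Inmt), with sums of 6739 to 10358 CPM in BLM and 3611, 7154 and 4466 CPM in BLM+HBO. No marker was at 0, and their part in Cxcl12 and Cxcl14 was not tested.

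Cxcl13 and its receptor Cxcr5, which place B cells in follicles, were called in opposite directions. Cxcl13 (ENSMUSG00000023078.6, GRCm38 chr5:95956951-95961068, plus strand) had 28.2, 17.1, 13.5 and 11.5 CPM in BLM and 11.8, 12.2 and 7.39 CPM in BLM+HBO. BLM 1 was the highest, and 2 BLM+HBO mice lay above the lowest BLM mouse. Its log2 fold change was -0.75 (standard error 0.32, 95% interval -1.46 to -0.04). The call was lost when BLM 1 (-0.42), BLM 2 (-0.76), BLM+HBO 1 (-0.84) or BLM+HBO 3 (-0.55) was left out.

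Cxcr5 (ENSMUSG00000047880.15, GRCm38 chr9:44511787-44561877, minus strand) had 3.14, 4.79, 3.51 and 3.58 CPM in BLM and 11.7, 4.79 and 7.99 CPM in BLM+HBO. BLM+HBO 2 was level with BLM 2 and the other BLM+HBO mice were above all BLM mice. On the log2 scale the difference was 1.12 (standard error 0.31, 95% interval 0.43 to 1.81), and it was called with each mouse left out in turn. Of its exon bases, 3.30% overlap Bcl9l on the other strand, and the counting did not use strand. B cell markers moved with Cxcr5, with 9 of 10 called higher and 0 lower (median log2 fold change 0.96). They summed to 79.4 to 144 CPM in BLM and to 288, 143 and 171 CPM in BLM+HBO, and none was at 0. Their part in the higher Cxcr5 was not tested.

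Cxcr3, the receptor of activated T and NK cells (ENSMUSG00000050232.6, GRCm38 chrX:101731535-101734269, minus strand), had 2.53, 2.37, 2.03 and 4.26 CPM in BLM and 7.45, 3.4 and 4.24 CPM in BLM+HBO. BLM 4 was level with BLM+HBO 3. This gave a log2 fold change of 0.84 (standard error 0.36, 95% interval 0.04 to 1.64), and the call was lost without BLM 1 (0.79), BLM 2 (0.77), BLM 3 (0.71) or BLM+HBO 1 (0.45). Its interferon-induced ligands were not called. Cxcl9 had 6.22, 12.3, 6.75 and 5.27 CPM in BLM and 13.0, 9.14 and 3.82 CPM in BLM+HBO, with a log2 fold change of 0.18. Cxcl10 had 18.7, 24.2, 22.1 and 14.8 CPM in BLM and 17.8, 22.1 and 9.15 CPM in BLM+HBO, with a log2 fold change of -0.29. Both ligands overlapped between groups.

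NK cell markers moved with Ccl5 and Cxcr3. Of 10 markers, 8 were called higher and 0 lower, with a median log2 fold change of 1.66 and sums of 13.1 to 37.8 CPM in BLM and 121, 35.8 and 36.5 CPM in BLM+HBO. T cell markers all had positive log2 fold changes, with a median of 0.50, and 0 of 10 were called (sums of 51.2 to 82.1 CPM in BLM and 126, 77.2 and 57.2 CPM in BLM+HBO). None of these markers was at 0. As for Ccl5 and Cxcr3, BLM+HBO 1 was the highest mouse and BLM 4 the highest BLM mouse in both lists. Their part in the higher Ccl5 and Cxcr3 was not tested.

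Ackr4, the scavenger of Ccl19, Ccl21 and Ccl25 (ENSMUSG00000079355.5, GRCm38 chr9:104084157-104126933, minus strand), had 1.32, 1.24, 1.54 and 2.26 CPM in BLM and 6.87, 1.77 and 2.59 CPM in BLM+HBO. BLM+HBO 1 was apart from all other mice. BLM+HBO differed from BLM by a log2 fold change of 1.22 (standard error 0.47, 95% interval 0.18 to 2.27), and the call was lost without BLM+HBO 1 (0.45), BLM 1 (1.14), BLM 2 (1.12) or BLM 3 (1.21). Of its exon bases, 8.90% overlap Acad11 on the other strand. Ccl19 had 0 to 19 reads per mouse and Ccl21a 0 to 20 reads, and neither was tested. The copies of the Ccl21 and Ccl27 genes are nearly identical and reads that map to several places were dropped, so their counts are uncertain.

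Ccr7, the receptor of Ccl19 and Ccl21 on dendritic and T cells, had 12.5, 9.92, 15.3 and 22.0 CPM in BLM and 31.2, 25.4 and 14.8 CPM in BLM+HBO. BLM+HBO 1 and BLM+HBO 2 were above every BLM mouse. Its log2 fold change of 0.67 was not called (95% interval -0.00 to 1.35), and it was called without BLM 4 (0.92) and without BLM+HBO 3 (0.92). By DESeq2 over all mice Ccr7 passed both limits (0.67, DESeq2 unadjusted P = 0.0329, adjusted P = 0.373). Of 10 dendritic cell markers, 4 were called higher and 0 lower, and none was at 0. They summed to 107 to 142 CPM in BLM and to 145 to 181 CPM in BLM+HBO, and their part in the level of Ccr7 was not tested.

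The other ligand and receptor pairs were not called over all mice. Cx3cl1 (fractalkine) had 42.7, 52.4, 46.0 and 47.0 CPM in BLM and 62.2, 44.1 and 71.7 CPM in BLM+HBO, with a log2 fold change of 0.34 (95% interval -0.02 to 0.69). Its receptor Cx3cr1 had 49.8, 46.3, 27.6 and 48.5 CPM in BLM and 41.4, 45.9 and 32.3 CPM in BLM+HBO, with a log2 fold change of -0.11 (95% interval -0.58 to 0.35). The receptor overlapped fully between groups, and BLM 3 was its lowest mouse. Cxcl16 had 146, 133, 174 and 145 CPM in BLM and 105, 167 and 116 CPM in BLM+HBO (log2 fold change -0.21). Its receptor Cxcr6 had 5.56, 3.72, 4.34 and 5.95 CPM in BLM and 7.93, 7.47 and 4.87 CPM in BLM+HBO, with a log2 fold change of 0.46 that was 0.65 and called without BLM+HBO 3.

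Ccl17, a ligand of Ccr4, had 16.6, 10.5, 16.7 and 13.3 CPM in BLM and 11.4, 31.1 and 10.4 CPM in BLM+HBO. Only BLM+HBO 2 was high, and the log2 fold change turned from 0.30 to -0.39 without that mouse. Ccr4 had 1.38, 1.24, 0.604 and 2.21 CPM in BLM and 2.08, 1.44 and 1.5 CPM in BLM+HBO (log2 fold change 0.29). Ccl20 had 2.09, 1.41, 6.53 and 2.63 CPM in BLM and 2.61, 3.02 and 1.61 CPM in BLM+HBO, with a log2 fold change of -0.40 that was 0.23 without BLM 3. Its receptor Ccr6 had 1.05, 1.69, 1.04 and 2.05 CPM in BLM and 2.93, 1.96 and 1.84 CPM in BLM+HBO (log2 fold change 0.61). None of these 4 genes was called.

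Of the members whose log2 fold change is not yet given, Ccl27a (0.52), Ccl25 (0.09), Ccr9 (0.21) and Xcl1 (1.30) had positive ones. Ccl28 (-0.77), Ccr10 (-0.92), Ackr2 (-0.16), Ccr8 (-0.14) and Cxcl17 (-0.04) had negative ones, and none of the 9 was called over all mice. Ccl27a was called higher without BLM+HBO 2 (0.71). Xcl1 was detected at 0 to 0.579 CPM in BLM and 0.45 to 0.909 CPM in BLM+HBO. Other genes overlap 18.7% of the exon bases of Xcl1, 18.8% of those of Ccr9 (1 of 3 overlapping genes) and 18.3% of those of Cxcl16, and reads from both were left out by the counting. Ccl21b had 0 to 1 reads per mouse, and Ccl27b, like Ccl26, had 0 reads in every mouse.

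Genes that carry the signal inside the cell were rarely called, as were genes in general. Of 40 genes downstream of chemokine receptors (G protein subunits, arrestins, kinases and small GTPases), 1 was called higher (beside 3.40% of all genes) and 0 lower (beside 2.89%), with a median log2 fold change of -0.05. The one called was Grk3 (log2 fold change 0.63, standard error 0.15), a kinase that desensitises receptors. Nfkb1 and Rela, subunits of NF-kB, had log2 fold changes of 0.05 and -0.01 and were not called. Of 14 other leukocyte chemoattractant genes, 2 were called lower, the complement receptors C5ar1 (log2 fold change -1.06, standard error 0.24) and C3ar1 (-1.07, standard error 0.32), and 0 higher. Among the 32 tested ligands the median log2 fold change was -0.38, and among the 20 receptors it was 0.25.

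Leaving out BLM+HBO 2 changed the counts of members more than leaving out any other mouse. With the remaining 6 mice, 53 members were tested, 15 were called lower (against 5.41% of all genes) and 9 higher (against 5.29%). After Benjamini-Hochberg adjustment edgeR then called 11 members, against 1.49% of all genes. These included Ccl7 (-3.15, adjusted P = 0.00107), Ccl2 (-3.30, adjusted P = 0.00513), Cxcl12 (-1.21), Ccl9 (-0.85), Ccl8 (-1.53), Ccr1 (-1.31), Cxcl14 (-0.97), Cxcr5 (1.39), Ppbp (2.47) and Ccl12 (-2.13). Among the 7 mice left out in turn, Cxcl2, Ccl12 and Cxcl12 were called lower by edgeR only without BLM+HBO 2. By DESeq2, Ccl12 also passed both limits over all 7 mice. BLM+HBO 2 was singled out because it lay nearest to BLM over all genes of these same data, and nothing in the sample records sets it apart. Leaving out the mouse nearest to the other group favours larger differences and more calls, so that these adjusted P depend on that choice.

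**Figure D4:**
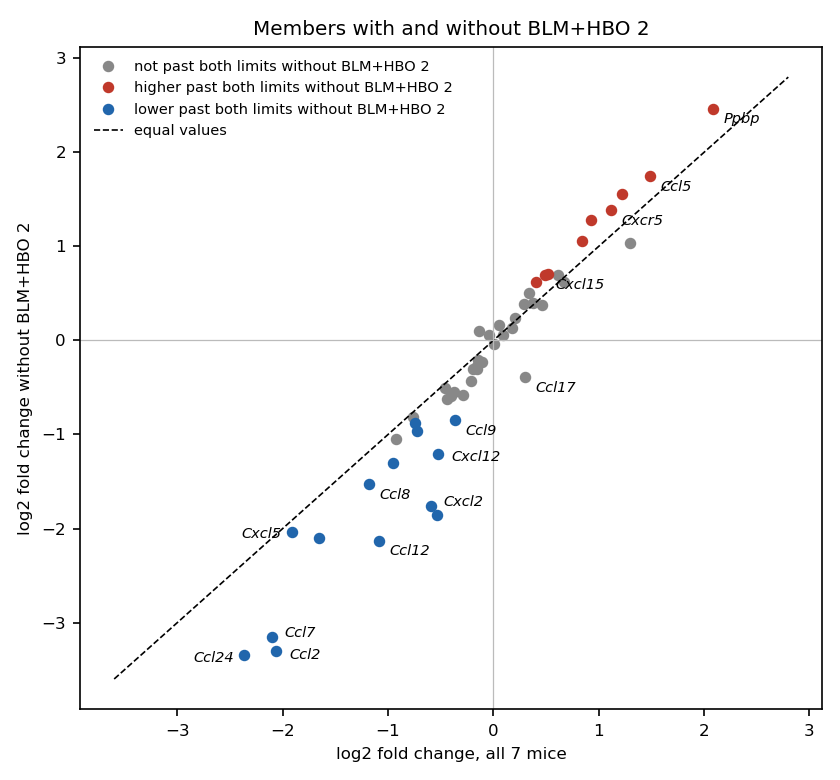
Each point is 1 member, with its log2 fold change over all 7 mice on the horizontal axis and without BLM+HBO 2 on the vertical axis (edgeR), coloured by its call without that mouse, and the dashed line marks equal values. Ccl2, Ccl7 and Ccl12 lie at -3.30, -3.15 and -2.13 without the mouse, below the line, and Ccl17 lies on the other side of 0.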

How the data were processed

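Bulk RNA of the right lung lobes was measured by RNA-seq (NEBNext Ultra libraries, paired ends, Illumina NovaSeq). Per the methods, reads were trimmed (Trim Galore) and aligned to GRCm38 by HISAT2 (version 2.2.0 in the submitters' processing notes). The deposited values were raw counts per gene, which the authors made by featureCounts with its defaults, so that strand was not used and multi-mapping or ambiguous reads were dropped. The annotation release is not given in the sources used here, and GENCODE vM21 gave symbols for 55141 of 55401 genes.

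Groups were taken from the sample titles, with each mouse as 1 replicate. Libraries of a group differed by more than sampling noise (chi-square per gene of at least 22.1). After filterByExpr (minimum count 10, minimum total 15) and TMM normalisation, 17465 genes were tested with edgeR 4.0.16 (quasi-likelihood, two-sided, R 4.3.3) with BLM as the reference and Benjamini-Hochberg adjustment over all of them. The scripts were tested on simulated data. CPM are counts scaled to the normalised library size, standard errors are the log2 fold change over the square root of F, and intervals are at 95%.

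Alternatives were DESeq2 1.42.0, RLE factors, no filter, a filter of 1 CPM in 3 mice, a replicate block and leaving out each mouse. Values per mouse were given for members that were called, did not overlap or belong to well known ligand and receptor pairs. The members, lists and rules were chosen with earlier results of these data known. Promoters are from RefSeq (GRCm38.p6), in which 44 of the 58 members matched by symbol. A few items are not reported here, although the counts of members and of listed genes include them.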

Additional observations from a re-analysis of the deposited data

Results flagged for a closer look

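Groups of 4 BLM values were examined, 35 for 1 member each on the log2 CPM scale and 1 for the log2 reads on all members. Of these 36 groups, 2 held a mouse apart from the others by Dixon's test, where chance flags about 1 in 20. Both times the mouse was BLM 3 and its value was the lowest. Cxcl2 was at 0.26 log2 CPM in BLM 3, against 1.89 to 2.05 in the other BLM mice, a gap of 0.908 of the range. Cx3cr1 was at 4.79 log2 CPM in BLM 3, against 5.54 to 5.64, a gap of 0.878 of the range.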

How the results depend on the processing

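Members near 1 CPM or below, such as Cxcr1 and Xcl1, rest on few reads, as do the lower mice of Ccl24 and Cxcl3. The counts of members called lower (10) and of members called higher (5) stayed within 1.5 times under DESeq2 (11 and 6), RLE factors (10 and 5), no filter (11 and 6), the filter of 1 CPM (10 and 5) and the replicate block (10 and 7). Leaving out each mouse gave 7 to 15 lower and 2 to 9 higher members. Over all genes tested it gave 303 to 968 lower and 345 to 946 higher. After adjustment, the count of 0 members became 3 by DESeq2 and 10 with no filter on low counts, and 0 to 11 with a mouse left out (11 without BLM+HBO 2, 0 otherwise). The count over all genes, 1098, became 1940 with no filter and 659 to 1914 with a mouse left out. Numbers in the sample titles were not used as pairs in the main comparison. Deviations from the group means correlated at -0.01, -0.07 and 0.16 over the 3 shared numbers, too few to settle whether mice were paired. Under the replicate block Cxcl1 was at -1.19 and not called, Ccl12 (-1.64) and Ccr7 (0.88) were called, and Cxcl9 turned to -0.063. Ccl12 and Ccr7 also passed both limits by DESeq2 (-1.08 and 0.67) and with no filter (-1.09 and 0.66). Among the 35 named members, the log2 fold change changed sign over leaving out each mouse for Ccr2 (-0.38 to 0.28), Cx3cr1 (-0.27 to 0.015), Cxcl9 (-0.24 to 0.53), Cxcr2 (-0.94 to 0.18), Ccl17 (-0.39 to 0.58), Ccl20 (-0.64 to 0.23) and Pf4 (-0.34 to 0.10). None of them was called in the comparison of all mice. Outside the named members, Ccl11 (-0.04) and Cxcl17 (0.06) also changed sign without BLM+HBO 2. Of 420 values over the named members and alternatives, 373 kept direction and side of the limits, 20 lost the call, 16 gained it and 11 changed sign. The cause of these changes was not tested.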
